A study of Homo sapiens with 8 samples.

Results

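The enzymes that make serine and pass its carbon to folate were compared across 4 drug treatments of a human leukemia cell line. The 9 genes were chosen by symbol: PHGDH, PSAT1 and PSPH of serine synthesis, SHMT2, MTHFD2, MTHFD1L and ALDH1L2 of the mitochondrial folate pathway, and SHMT1 and MTHFD1 of the cytosolic folate pathway. All 9 were found among the 26364 gene symbols of the expression table, and all 9 passed the filter on low values that left 14151 genes for testing. They were picked because earlier results of these data showed them lower with palbociclib, so their levels against DMSO are given as a description, and no test of them against DMSO is used as evidence.

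MV4-11 is an acute myeloid leukemia line that carries an internal tandem duplication of FLT3 and the MLL-AF4 fusion. RNA was sequenced from 8 libraries in 4 groups of 2, labelled day 4: DMSO vehicle, TCP (tranylcypromine, an inhibitor of the histone demethylase LSD1, at 5 µM), Palbo (palbociclib, an inhibitor of the cell cycle kinases CDK4 and CDK6, at 0.5 µM) and PTCP (both drugs at the same doses). By the methods of the study the cells were grown on HS-5 bone marrow stromal cells and the CDK6 inhibitor was given before the LSD1 inhibitor, and all groups came from a single line. No label says whether the 2 libraries of a group came from separate cultures, so all tests measure only the spread between these libraries.

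In cells, PHGDH, PSAT1 and PSPH convert an intermediate of glycolysis into serine. SHMT enzymes then split serine into glycine and a one-carbon unit that is carried on tetrahydrofolate. In mitochondria, MTHFD2, MTHFD1L and ALDH1L2 oxidize that unit or release it as formate or carbon dioxide, and in the cytosol MTHFD1 turns formate back into the folates used for purine and thymidylate synthesis. Proliferating blood cancer cells are known to use the mitochondrial arm strongly, and the transcription factor ATF4 is a known activator of many of these genes.

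Values were deposited as TPM, a transcript abundance normalized to gene length and to the library total, so levels can be compared between genes within a library. Between libraries, a TPM is a share of a fixed total, and the make-up of that total differed. The 10 highest genes held 9.12% to 9.67% of it in DMSO and TCP, and 13.96% to 15.77% in Palbo and PTCP. What this shift adds to the differences below was not tested beyond the alternative scalings. Each library summed to 1000000 TPM, the number of reads behind a value is unknown, and the genes at 1 TPM or more numbered 13320 to 13640 per library. The leukemic markers were present in every library, with PTPRC at 27.8 to 71.5 TPM and CD33 at 103 to 141 TPM. Of 13 stromal markers, POSTN was listed at 0 in all libraries and 4 stayed below 1 TPM throughout, but 10 were highest in Palbo replicate 2, where COL1A1 reached 22.2 TPM against 0.15 to 3.78 TPM in the other libraries. Summed over the stromal list, levels were 12.6 and 16.3 TPM in DMSO, 16.8 and 20.7 in TCP, 18.1 and 87.2 in Palbo, and 24.4 and 31.2 in PTCP. TAGLN made up much of these sums outside Palbo replicate 2. Without it they were 1.70 and 7.97 TPM in DMSO, 1.63 and 6.18 in TCP, 4.66 and 73.1 in Palbo, and 7.32 and 13.6 in PTCP. The part of stromal RNA in the results below was not tested.

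Both palbociclib groups had much less serine synthesis transcript than DMSO or TCP. The 3 serine synthesis genes together came to 685 and 502 TPM in DMSO, 622 and 344 TPM in TCP, 60.9 and 52.5 TPM in Palbo, and 53.0 and 49.5 TPM in PTCP. The 4 mitochondrial folate genes summed to 925 and 744 TPM in DMSO and to 376 and 325 TPM in Palbo and 370.1 and 334 TPM in PTCP. The 2 cytosolic genes summed to 144 and 163 TPM in DMSO and to 81.6 and 69.7 TPM in Palbo and 64.4 and 63.1 TPM in PTCP. Of the 3 sums, that of serine synthesis lay furthest below its DMSO level in both palbociclib groups. In bulk RNA, less transcript per cell and fewer cells that carry it cannot be told apart.

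**Figure D1:**
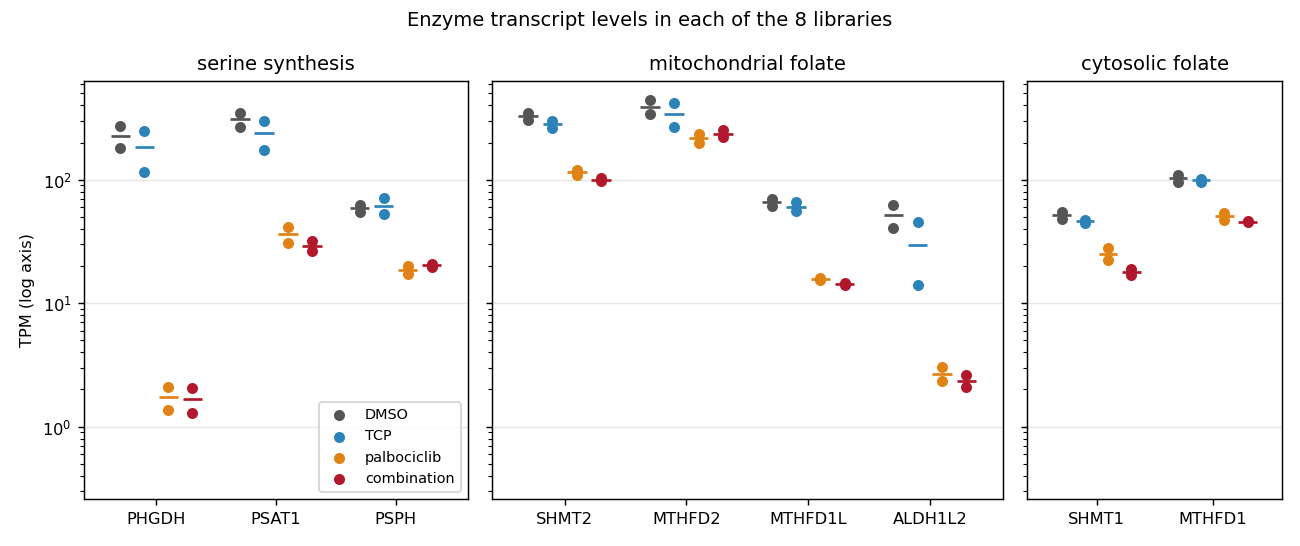
Level of each of the 9 genes in each of the 8 libraries, in TPM on a log axis, with 1 point per library and a bar at the group mean. Palbo and PTCP points sit below all DMSO and TCP points for every gene, and PHGDH drops furthest, from 116 TPM or more to 2.09 TPM or less.

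PHGDH (ENSG00000092621, GRCh37 chr1:120191034-120286841, plus strand) encodes the dehydrogenase that commits 3-phosphoglycerate to serine. It stood at 274 and 179 TPM in DMSO, 249.5 and 116 TPM in TCP, 2.09 and 1.36 TPM in Palbo, and 1.296 and 2.06 TPM in PTCP. The DMSO and TCP libraries overlapped, the Palbo and PTCP libraries overlapped, and the 2 pairs of groups were far apart. Mean TPM was 131-fold lower in Palbo and 135-fold lower in PTCP than in DMSO. The difference in log2(TPM + 1) was -6.36 ± 0.38 (SE, n = 2 against 2) for Palbo and -6.39 ± 0.38 for PTCP, and since the lower values lie near the added 1 TPM, this scale understates it: with 0.1 TPM added, PHGDH differed by -6.95 and -7.00. In DMSO replicates 1 and 2, 96.3% and 93.4% of tested genes lay below PHGDH, and in Palbo replicates 1 and 2 only 12.5% and 7.72% did.

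PSAT1 (ENSG00000135069, chr9:80912041-80945009, plus strand), the aminotransferase of the second step, was at 348 and 268 TPM in DMSO and 301 and 175 TPM in TCP. It was at 41.6 and 31.0 TPM in Palbo and 32.1 and 26.5 TPM in PTCP. No palbociclib library came near a library without it, and the log2 differences from DMSO were -3.05 ± 0.27 and -3.34 ± 0.27 (SE).

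PSPH (ENSG00000146733, chr7:56078744-56119297, minus strand), the phosphatase that releases serine, was lower by less. Its levels were 62.9 and 55.2 TPM in DMSO, 71.0 and 52.5 TPM in TCP, 17.2 and 20.2 TPM in Palbo, and 19.6 and 20.9 TPM in PTCP. The log2 differences from DMSO were -1.61 ± 0.16 in Palbo and -1.496 ± 0.157 in PTCP. The 3 genes of this short pathway thus differed widely among themselves, and their balance shifted: the ratio of PHGDH to PSPH transcript within a library was 4.36 and 3.25 in DMSO, 3.51 and 2.22 in TCP, 0.122 and 0.0676 in Palbo, and 0.0660 and 0.0988 in PTCP. PHGDH was thus the more abundant of the pair without palbociclib and the scarcer with it.

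SHMT2 (ENSG00000182199, chr12:57623356-57628718, plus strand), the mitochondrial serine hydroxymethyltransferase, was among the most abundant of the 9 transcripts. It stood at 350.4 and 303 TPM in DMSO, 302 and 263 TPM in TCP, 120.1 and 110.2 TPM in Palbo, and 102 and 97.6 TPM in PTCP. Here the replicates lay close together, and the log2 differences from DMSO were -1.49 ± 0.10 and -1.69 ± 0.10.

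MTHFD2 (ENSG00000065911, chr2:74413299-74444692, plus strand), the mitochondrial dehydrogenase and cyclohydrolase, was the most abundant of the 9 in every library. Its level was 442 and 339 TPM in DMSO, 416 and 267 TPM in TCP, 237 and 197 TPM in Palbo, and 251 and 221 TPM in PTCP. The Palbo and PTCP libraries lay below the DMSO libraries, but not far below TCP replicate 2. Its log2 differences from DMSO, -0.84 ± 0.23 and -0.72 ± 0.23, were the smallest of the 9. Its sister gene MTHFD2L, from the list of other pathway genes, was at 1.17 to 2.22 TPM over all 8 libraries.

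MTHFD1L (ENSG00000120254, chr6:151186815-151423023, plus strand), the mitochondrial enzyme that yields formate, was at 69.5 and 61.5 TPM in DMSO and 65.7 and 55.5 TPM in TCP. It was at 16.0 and 15.5 TPM in Palbo and 14.5 and 14.2 TPM in PTCP, a narrow range within each group. The log2 differences were -1.99 ± 0.11 and -2.12 ± 0.11. Promoter sequences are shown here because ATF4 pairs with C/EBP proteins at a known composite motif and MYC binds E-boxes, and MTHFD1L was the 1 member with both letter strings. RefSeq promoters (GRCh38.p14, from 250 bases before to 50 after a start) were listed for 6 of the 9 genes, with 4 starts for MTHFD1L. The motif letters are in capitals, each run is given 5′ to 3′ on the plus strand, and the coordinates are those of its single match in GRCh37.
MTHFD1L C/EBP-ATF type, chr6:151187482-151187511: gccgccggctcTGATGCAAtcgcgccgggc
MTHFD1L E-box, chr6:151187457-151187486: acgcccggctcCACGTGcgcagccggccgc
MTHFD1 E-box, chr14:64855045-64855074: cagtccctaagCACGTGggttgggttgtcc
Searched on both strands, TGATGNAA was found in 3 of the 4 MTHFD1L promoters and in no promoter of the other 5 matched genes, against 3.62% of 35116 promoters. The MTHFD1L promoters overlap, and these matches are all the 1 site printed above. Among the other pathway genes it was found in 2 of 47 promoters, at SLC1A4 and SLC1A5. CACGTG was found in promoters of MTHFD1L, again as 1 site, and of MTHFD1, against 7.26% of promoters. Among the other pathway genes it was in 4 of 47 promoters, at ATIC, FPGS, SLC19A1 and SLC1A5. The E2F type letters TTTGGCGC were in none of the 9 promoters, against 0.652%, and in 1 of the 47, at GART. The first 2 strings do not overlap in MTHFD1L, and a match of letters does not show a bound site.

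ALDH1L2 (ENSG00000136010, chr12:105413562-105501421, minus strand), which oxidizes the one-carbon unit to carbon dioxide in mitochondria, had the widest replicate spread. It was at 62.9 and 40.9 TPM in DMSO, 45.3 and 14.2 TPM in TCP, 3.06 and 2.32 TPM in Palbo, and 2.60 and 2.09 TPM in PTCP. TCP replicate 2 stood apart from the other 3 libraries without palbociclib. Mean TPM was 19.3-fold lower in Palbo and 22.1-fold lower in PTCP than in DMSO, with log2 differences of -3.82 ± 0.48 and -3.95 ± 0.48. ALDH1L1, its cytosolic counterpart, was at 0.04 TPM or less in all libraries, so the cytosolic partner of this step was close to undetected.

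Both cytosolic genes were lower too. SHMT1 (ENSG00000176974, chr17:18231174-18266877, minus strand), the cytosolic form of SHMT2, stood at 48.2 and 54.5 TPM in DMSO, 44.9 and 47.6 TPM in TCP, 28.0 and 22.3 TPM in Palbo, and 18.9 and 16.9 TPM in PTCP. Its log2 differences from DMSO were -1.01 ± 0.13 and -1.47 ± 0.13. MTHFD1 (ENSG00000100714, chr14:64854749-64930175, plus strand), the 3-function cytosolic enzyme, was at 95.7 and 109 TPM in DMSO, 95.7 and 102 TPM in TCP, 53.5 and 47.4 TPM in Palbo, and 45.5 and 46.2 TPM in PTCP. Its log2 differences were -1.01 ± 0.10 and -1.14 ± 0.10. For both genes the groups with and without palbociclib did not overlap, and TCP sat close to DMSO.

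**Figure D2:**
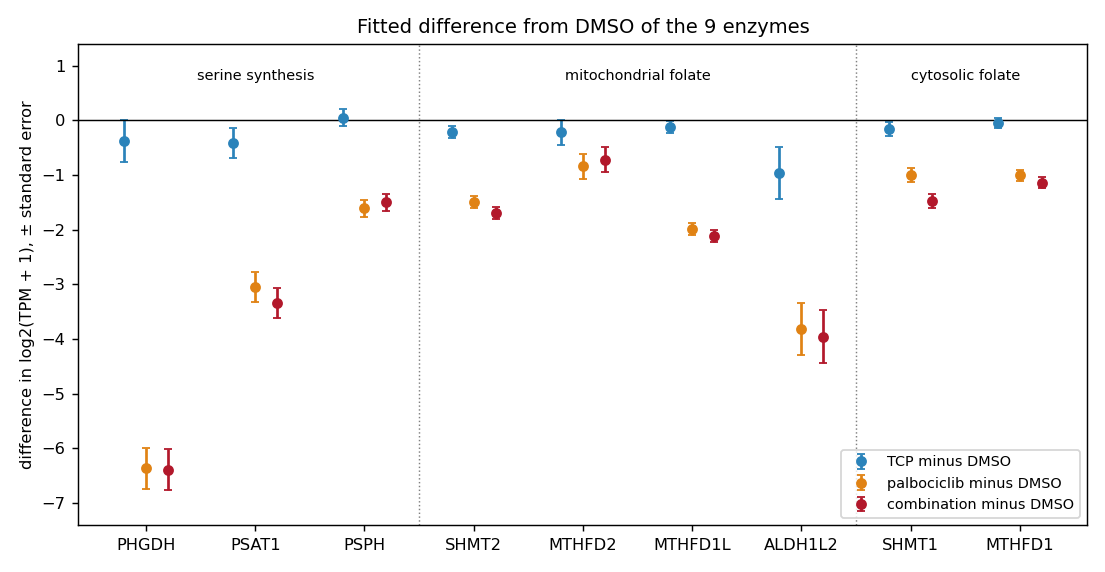
Fitted difference from DMSO in log2(TPM + 1) for each gene, with bars of ± 1 standard error, for TCP, palbociclib alone and the combination (n = 2 libraries a group). The TCP points lie between -0.41 (PSAT1) and 0.05 (PSPH) except ALDH1L2 at -0.96. The palbociclib and combination points of a gene lie furthest apart for SHMT1, at -1.01 and -1.47. They run from about -6.4 for PHGDH to -0.84 and -0.72 for MTHFD2.

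A gene was called when the fitted difference was at least 1 on the log2 scale and limma's Benjamini-Hochberg adjusted p was below 0.01 over all genes tested. Against DMSO, 8 of the 9 genes passed those limits as lower in Palbo, where 4.56% of all tested genes did (9.1% in either direction), and 8 of 9 in PTCP, where 7.82% did (13.7% in either direction). In PTCP against TCP it was also 8 of 9, against 6.7% of all genes (12.2% in either direction). MTHFD2 was the gene outside the limits each time, and MTHFD1 and SHMT1 were just inside them in Palbo. All 9 genes were lower without overlap in Palbo, as were 49.7% of all genes, and all 9 in PTCP, as were 54.2%, and all 9 in PTCP against TCP, as were 48.9%. The genes were chosen for these contrasts, so nothing follows from the counts. The median of the 9 was -1.61 in Palbo and -1.69 in PTCP, beside medians over all genes of -0.16 and -0.22. These comparisons share control libraries. The count in Palbo depended on single libraries: it was 5 of 9 without Palbo replicate 2, the library with the collagen transcripts, and 6 of 9 without DMSO replicate 2. Without Palbo replicate 2, SHMT1 and MTHFD1 went below the fold limit, at -0.85 and -0.92, and ALDH1L2 missed the limit on the adjusted p with a difference of -3.67, against -3.82 with it. PHGDH, SHMT2 and MTHFD1L differed by -6.17, -1.43 and -1.97 without that library, so the differences were of a like size without it. Scaling by median ratio or by quantiles, which moves the median of all genes by over 0.1, left 6 of 9 in Palbo and 7 of 9 in PTCP.

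The order of the 9 levels was rearranged accordingly. In both DMSO libraries it ran MTHFD2, SHMT2, PSAT1, PHGDH and then MTHFD1, although SHMT2 and PSAT1 did not differ beyond their spread, and the remaining 4 lay together at 40.9 to 69.5 TPM. In all 4 palbociclib libraries MTHFD2, SHMT2 and MTHFD1 were the top 3, PSAT1 came next, and ALDH1L2 and PHGDH were last. MTHFD2 stayed above 94.8% of tested genes in its lowest palbociclib library.

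Compartment was compared through ratios within each library, since these do not depend on scaling between libraries. The summed level of the 4 mitochondrial genes over that of the 2 cytosolic genes was 6.42 and 4.55 in DMSO, 5.89 and 4.00 in TCP, 4.61 and 4.66 in Palbo, and 5.74 and 5.30 in PTCP. Every Palbo and PTCP value lay between the DMSO libraries, which were far apart, so this sum separated neither group from DMSO. Both PTCP values lay above both Palbo values, and TCP replicate 2 lay below both DMSO libraries. The log2 difference of the summed ratio from DMSO was -0.22 in Palbo and 0.03 in PTCP, against a pooled SD of 0.27 between replicates. An exact permutation test of 2 against 2 libraries cannot give a two-sided p below 0.333. Taken gene by gene, the median log2 difference from DMSO was -1.74 for the mitochondrial and -1.01 for the cytosolic genes in Palbo. In PTCP these medians were -1.90 and -1.30.

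The single enzymes of the mitochondrial arm did not keep that balance. SHMT2 over SHMT1 was 7.26 and 5.56 in DMSO, 6.72 and 5.53 in TCP, 4.28 and 4.93 in Palbo, and 5.42 and 5.76 in PTCP, so Palbo lay below and PTCP across the lower DMSO value. MTHFD2 over MTHFD1 was 4.62 and 3.11 in DMSO, 4.43 and 4.15 in Palbo, and 5.50 and 4.78 in PTCP, so PTCP lay above both DMSO libraries. MTHFD1L over MTHFD1 went the other way, at 0.725 and 0.564 in DMSO, 0.686 and 0.543 in TCP, 0.298 and 0.327 in Palbo, and 0.318 and 0.307 in PTCP. ALDH1L2 over MTHFD1 was 0.657 and 0.375 in DMSO and 0.0571 and 0.0490 in Palbo. Relative to MTHFD1, the less abundant MTHFD1L and ALDH1L2 were thus lower with palbociclib, and the more abundant MTHFD2, which weighs most in the sum, was not.

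**Figure D3:**
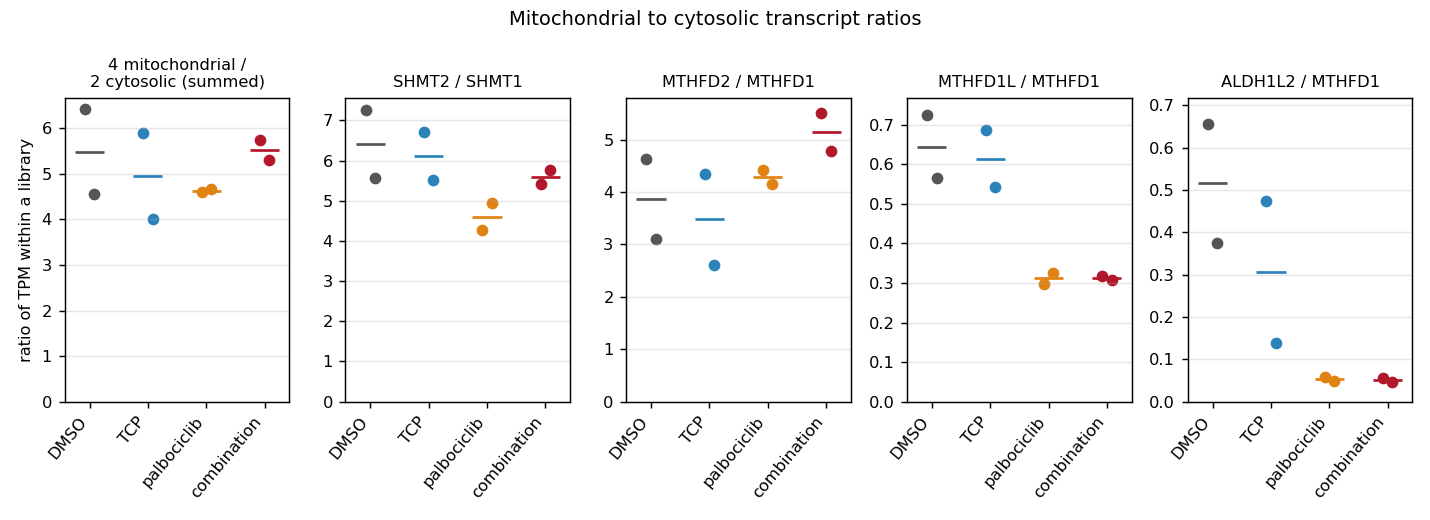
Ratio of TPM of mitochondrial to cytosolic genes within each library, with 1 point per library and a bar at the group mean, each panel starting at 0. The summed ratio overlaps between groups, except that both points of the combination lie above both points of palbociclib alone. MTHFD1L and ALDH1L2 over MTHFD1 are lower in both palbociclib groups, and MTHFD2 over MTHFD1 is not.

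The members were not known to be chosen for the effect of TCP, so that effect was tested. The test reuses the DMSO libraries, whose high values had a part in the choice. The direction of these estimates is therefore not independent of the choice, and nothing is read from it. None of the 9 was called for TCP against DMSO, where 0.0565% of all genes were (8 genes, or 20 with the replicate number as a block), and none had an unadjusted limma p below 0.05 (3 did under the block), as 8.77% of all genes did. The estimate was below 0 for 8 of the 9, all but PSPH, and for these 8 TCP was below DMSO in both same-numbered pairs of libraries, as for 40.5% of all genes. Without TCP replicate 1, 5 of 9 had an unadjusted p below 0.05, as 16.0% of all genes did, and none was called. The adjusted p from limma ran from 0.650 to 0.960 over the 9 genes. The intervals still leave room for differences: the 95% interval of the log2 difference was -0.27 to 0.18 for MTHFD1, -0.46 to 0.04 for SHMT2, -1.26 to 0.51 for PHGDH and -2.10 to 0.17 for ALDH1L2. For ALDH1L2 the estimate was -0.96 and rested on 1 library, since without TCP replicate 2 it was -0.16.

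With TCP added to palbociclib, the estimates of the 9 genes against Palbo ran from -0.46 to 0.12. Some intervals were wide, with a 95% interval of -1.27 to 0.997 for ALDH1L2. This comparison reuses the Palbo libraries, and the interaction uses all groups, so neither is independent of the choice of members. None was called for PTCP against Palbo, where 0.502% of all genes were. SHMT1 was the 1 gene with an unadjusted limma p below 0.05, with a log2 difference of -0.46 (95% interval -0.76 to -0.16) and an adjusted p of 0.119, where 17.5% of all genes had such an unadjusted p. Both PTCP libraries were below both Palbo libraries, as for 37.2% of all genes. For PHGDH the difference was -0.03 (95% interval -0.92 to 0.86), for MTHFD2 it was 0.12 (-0.41 to 0.66) and for MTHFD1L it was -0.13 (-0.38 to 0.13). The interaction, which asks whether the TCP effect differed with palbociclib present, called 0 of the 9 genes with limma, with adjusted p from 0.902 to 0.9998, none at an unadjusted p below 0.05, and its estimate was 0.35 for PHGDH (95% interval -0.91 to 1.604) and -0.01 for MTHFD1L (-0.37 to 0.35). Over the whole table it called 0.0% of genes, with 904 of 14151 (6.39%) at an unadjusted p below 0.05.

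The rest of the folate, serine and glycine network was read from a list of 38 other genes, of which 30 passed the filter. In Palbo 5 were called lower and 1 higher, in PTCP 8 lower and 1 higher, and in PTCP against TCP 9 lower and 1 higher. Called lower over all genes were 4.56%, 7.82% and 6.7% in these comparisons, and called higher were 4.54%, 5.87% and 5.46%. The other 24, 21 and 20 tested genes did not pass, and no gene was called for TCP. The median log2 difference of the 30 was -0.41 in Palbo and -0.50 in PTCP, between that of all genes and that of the 9 enzymes.

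Among mitochondrial genes of this list, 1 of 9 tested was called in Palbo and 2 in PTCP. Over all genes, 9.1% and 13.7% were called in either direction, and nothing is read from these small counts. SFXN1, a mitochondrial serine carrier, fell from 90.0 and 91.1 TPM in DMSO to 41.3 and 39.1 TPM in Palbo and 33.9 and 34.8 TPM in PTCP (limma adjusted p = 9.4e-05 and 2.9e-05). SLC25A32, which brings folate into mitochondria, was at 72.2 and 78.6 TPM in DMSO and 37.9 and 35.6 TPM in PTCP (log2 difference -1.02, limma adjusted p = 0.00040), and at 41.5 and 33.5 TPM in Palbo, just short of the fold limit. The glycine cleavage gene GLDC was at 0.10 TPM or less in every library.

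Of 11 genes tested from the list named other cytosolic folate, which is not strict on compartment, TYMS and MTHFS were called in Palbo. TYMS, MTHFS and GGH were among those called in PTCP, and GGH is not an enzyme of the cytosol. TYMS, thymidylate synthase, fell from 317 and 360 TPM in DMSO to 151 and 148 TPM in Palbo and 113 and 105 TPM in PTCP. MTHFS, which returns 5-formyltetrahydrofolate to the active pool, was the gene that rose, from 5.12 and 4.71 TPM in DMSO to 13.7 and 12.4 TPM in Palbo and 12.6 and 10.6 TPM in PTCP (log2 differences 1.25 ± 0.12 and 1.09 ± 0.12). GGH, a hydrolase of folate polyglutamates, was the 1 gene of the list called for PTCP against Palbo, where 0.0424% of all genes were called lower, at 24.4 and 24.5 TPM against 55.1 and 45.5 TPM (log2 difference -1.01 ± 0.10, limma adjusted p = 0.0064). With any 1 library left out, and so fewer libraries in the fit, GGH was not called. The purine enzymes GART and ATIC were not called in Palbo or PTCP, at 67.0 to 78.4 TPM and 63.4 to 67.2 TPM there against 118 to 122 TPM and 124 to 133 TPM in DMSO.

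Folate carriers and genes that use serine behaved unevenly. SLC46A1, the proton-coupled folate carrier, had log2 differences of 0.98 and 1.27 with limma adjusted p of 0.039 and 0.012, which do not pass, and SLC19A1, the reduced folate carrier, differed by -0.49 and -0.77. CBS, which joins serine to homocysteine, fell from 50.4 and 40.7 TPM in DMSO to 4.34 and 2.31 TPM in Palbo and 3.71 and 1.76 TPM in PTCP. The amino acid carriers SLC1A5 and SLC1A4, which take up serine among other substrates, fell as well, with log2 differences of -1.95 and -1.95 in Palbo and -2.13 and -1.74 in PTCP. CBS, SLC1A4 and SLC1A5 were the 3 of 8 tested genes called in this group, in both treatments. Over all genes, 9.1% in Palbo and 13.7% in PTCP were called in either direction.

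**Figure D4:**
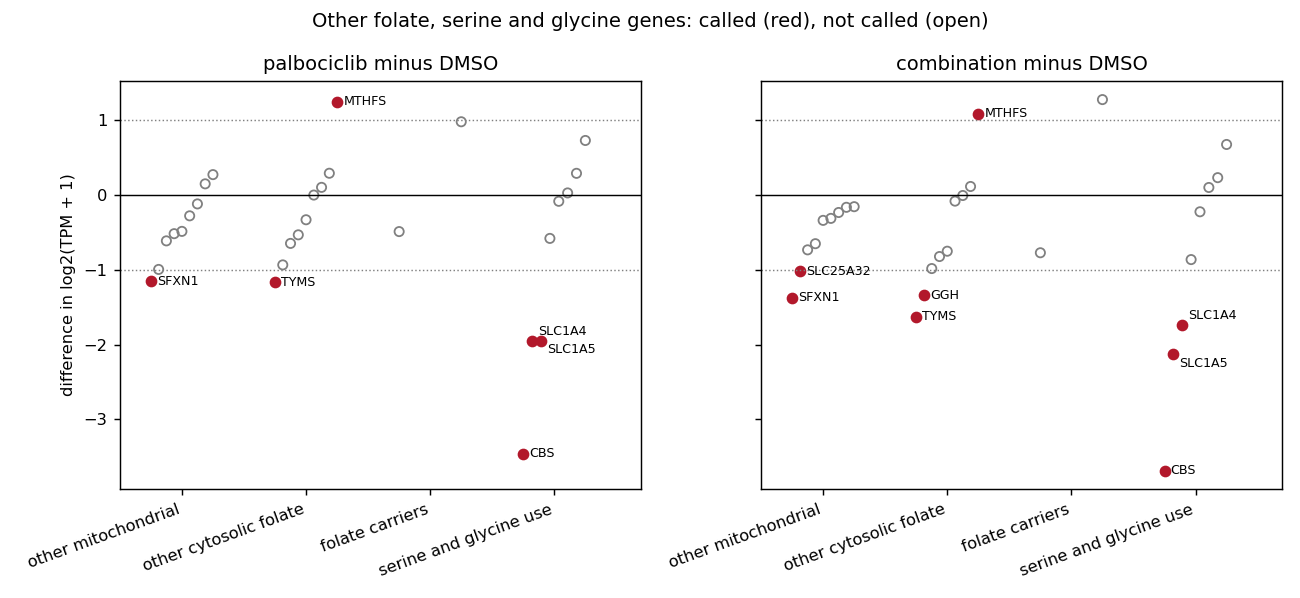
Fitted difference from DMSO in log2(TPM + 1) of the other pathway genes reported here, by list, for palbociclib alone and the combination, with dotted lines at ± 1. Filled points passed the test and carry names: CBS is lowest in both panels and MTHFS is the 1 called gene above 0.

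Known regulators of these genes were read beside them. ATF4 was at 811 and 779 TPM in DMSO, 712 and 687 TPM in TCP, 275 and 295 TPM in Palbo, and 249.3 and 273 TPM in PTCP. It was called lower in Palbo and in PTCP (log2 differences -1.476 and -1.603, SE 0.08, limma adjusted p = 5.6e-05 and 2.5e-05). MYC, at 865 and 860 TPM in DMSO, 467 and 456 TPM in Palbo, and 471 and 431 TPM in PTCP, differed by -0.90 and -0.94 and did not reach the fold limit. NFE2L2 differed by 0.19 and 0.26 and was not called. Of the drug targets, KDM1A, which encodes LSD1, differed by -0.86 and -0.81 and CDK6 by -0.14 and -0.49, none of them called. Whether any of these regulators had a part in the enzyme levels was not tested.

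Over the 8 libraries, the 5 genes outside the 9 with the profile most like PHGDH were ANKRD37, SLC7A5, MACROD1, NAP1L1 and TMEM97 (Pearson's r of log2(TPM + 1) from 0.996 to 0.999 among 11099 genes with a mean of at least 5 TPM). SLC7A5, an amino acid carrier, was at 381 and 312 TPM in DMSO and 60.1 and 64.9 TPM in Palbo. Those most like MTHFD1 were DDX18, EIF2B5, NELFCD, CEP70 and COQ3, with r from 0.998 to 0.9995. Of the other 8 enzymes, MTHFD1L was most like PHGDH (r = 0.998) and MTHFD2 least (r = 0.884). The 8 points form 2 clusters, with and without palbociclib, so these values describe mainly that split.

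The replicates differed in a patterned way in the same genes. In all 4 groups, replicate 2 was below replicate 1 for 5 of the 9 enzymes (PSAT1, SHMT2, MTHFD2, MTHFD1L and ALDH1L2), as it was for 22.4% of all tested genes. For PHGDH this held in 3 groups, where replicate 2 was lower by 0.61 in DMSO, 1.09 in TCP and 0.39 in Palbo on the log2 scale. The fitted difference of replicate 2 from replicate 1, with group as a term, was -0.46 for PSAT1 (limma adjusted p = 0.058), -0.37 for MTHFD2 (0.063), -0.68 for ALDH1L2 (0.13) and -0.15 for SHMT2 (0.092), and these 4 had an unadjusted p below 0.05, as did 27.1% of all tested genes. The cytosolic genes showed 0.03 for MTHFD1 and -0.05 for SHMT1. No gene of the table (0.0%) was called, and this contrast was added after the data were seen.

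**Figure D5:**
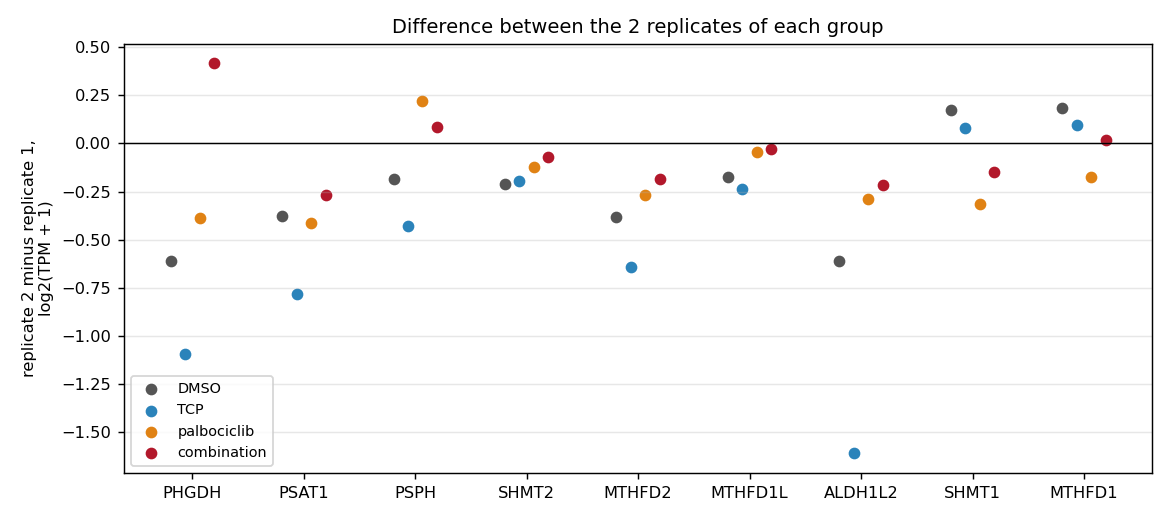
Replicate 2 minus replicate 1 in log2(TPM + 1) within each group, with 1 point per group for each gene. ALDH1L2 and PHGDH in TCP have the widest gaps, at -1.61 and -1.09, and the SHMT1 and MTHFD1 points lie on both sides of 0.

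Some neighbours could share reads with these genes. Genes on the opposite strand that overlap a member's end and are in the table were NDUFA4L2 at SHMT2, SLC4A5 at MTHFD2, SMCR8 at SHMT1 and ZBTB25 at MTHFD1, and ALDH1L2 overlaps C12orf45 and KIAA1033. Of these SMCR8 was at 53.7 to 65.1 TPM, C12orf45 at 8.84 to 24.0 TPM and KIAA1033 at 31.9 to 52.5 TPM. ALDH1L2 itself was at 2.09 to 3.06 TPM in the palbociclib libraries, below both of its neighbours. The annotation names 14 pseudogene copies of 5 members (PSAT1, PSPH, MTHFD2, SHMT1 and MTHFD1), of which MTHFD2P1 is in the table, at 0.0393 TPM or less. The strand setting of the counting and its handling of reads that match a copy are not given in the sources used here, so the levels of those genes are uncertain to that extent.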

How the data were processed

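Poly(A) RNA of MV4-11 cells was sequenced on an Illumina NextSeq 500 after stranded library preparation. By the methods and processing notes, the authors aligned reads with Subread to GRCh37, counted genes with featureCounts 1.6.4, tested with DESeq2 1.26.0, and deposited TPM, with SAMtools 1.9 also named. The annotation, gene lengths and strand setting are not given in the sources used here. The deposited TPM table holds no counts, so depth is unknown and count tests were not used.

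Values were put on the log2(TPM + 1) scale. Genes reaching 1 TPM in 2 or more libraries, 14151 in all, entered a single limma 3.58.1 fit (R 4.3.3) with a mean for each of the 4 groups, a trended prior and Benjamini-Hochberg adjustment. Calls needed a log2 difference of at least 1 and an adjusted p below 0.01. Gene positions came from GENCODE on GRCh37. The members and lists were chosen with earlier results of these data known. Named genes were the 9 members, other pathway genes called in a contrast or outermost in it, 5 regulators, and the 5 nearest profiles to PHGDH and MTHFD1, and further list genes named for contrast (MTHFD2L, ALDH1L1, GLDC, GART, ATIC and the folate carriers) were chosen after their values were seen. A gene of the other pathway list is counted there but not reported here. Alternatives changed the pseudocount, filter, scaling, block, samples fitted, threshold and libraries left out.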

Additional observations from a re-analysis of the deposited data

Results flagged for a closer look

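For 2 genes of the other pathway list, both TCP libraries lay above both DMSO libraries while both PTCP libraries lay below both Palbo libraries. The second part alone held for 37.2% of all genes, and the share of all genes with both parts was not counted. GCSH, a carrier protein of glycine cleavage, was at 3.80 and 3.24 TPM in DMSO, 4.99 and 4.42 TPM in TCP, 2.54 and 1.92 TPM in Palbo, and 1.91 and 1.52 TPM in PTCP. Its interaction was -0.59 on the log2 scale (limma adjusted p = 0.77). SRR, serine racemase, was at 53.3 and 51.4 TPM in DMSO, 63.0 and 55.3 TPM in TCP, 35.7 and 33.7 TPM in Palbo, and 29.1 and 27.6 TPM in PTCP. Its interaction was -0.45 (limma adjusted p = 0.55). Neither passed the test, so a difference of the TCP effect was not shown for them.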

How the results depend on the processing

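All 9 enzymes kept their direction in Palbo and PTCP against DMSO and in PTCP against TCP under every alternative run, and none was called for TCP, PTCP against Palbo or the interaction under any. The median of the 9 moved to -1.47 and -1.45 in Palbo, -1.53 and -1.46 in PTCP, and -1.38 and -1.37 in PTCP against TCP under quantile and median-ratio scaling, and between -1.39 and -1.76 in PTCP against TCP with 1 library left out. Calls over all genes for TCP went from 8 to 3 under both scalings, 20 with the replicate block, 0 with only the groups compared, 36 at an adjusted p below 0.05, and 0 to 1 with a library left out. Those for PTCP against Palbo went from 71 to 42 with 0.1 TPM added, 38 without the filter, 114 with the replicate block, 10 with only the groups compared, 183 at an adjusted p below 0.05, and 1 to 52 with a library left out. Palbo calls ranged from 787 (without Palbo replicate 2) to 1341 with a library left out. The interaction called 7 genes without the filter. The GGH call was 0 without the filter, under both scalings, with only the groups compared and with any library left out (0 to 0), and called list genes in PTCP against TCP were 6 under median-ratio scaling. The split of calls moved by over 10 points under both scalings, from 643 higher and 645 lower to 738 and 473 (quantile) and 817 and 414 (median-ratio) in Palbo, and from 830 and 1107 to 1003 and 786 and to 1104 and 680 in PTCP.

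The log2 ratio of mitochondrial to cytosolic level became 0.18 in Palbo and 0.44 in PTCP with MTHFD2 over MTHFD1 alone. With a library left out it ran from -0.43 to 0.12 for TCP, -0.47 to 0.03 for Palbo and -0.22 to 0.28 for PTCP. For differences not called, the sign was not stable: for PTCP against Palbo, PHGDH was at 0.014 under median-ratio scaling, and the MTHFD1L interaction was 0.037 and 0.0039 under quantile and median-ratio scaling. With a library left out, TCP against DMSO ran from -0.92 to 0.17 for PHGDH, -0.16 to 0.27 for PSPH, -0.54 to 0.10 for MTHFD2, -0.23 to 0.0063 for MTHFD1L and -0.14 to 0.047 for MTHFD1. PTCP against Palbo ran from -0.24 to 0.18 for PHGDH, -0.011 to 0.26 for MTHFD2 and -0.28 to 0.0051 for ALDH1L2. The interaction ran from -0.20 to 0.89 for PHGDH, -0.27 to 0.51 for PSAT1, -0.15 to 0.28 for PSPH, -0.10 to 0.11 for SHMT2, -0.13 to 0.11 for MTHFD1L and -0.18 to 0.0055 for MTHFD1. The cause of these changes was not tested, beyond fewer libraries or genes in the fit.

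Libraries with the same replicate number deviated together in every pair of groups (correlations 0.17 to 0.49 over genes), but with 2 libraries a group and no label on what a number shares this is a hint of pairing only. The block changed no call among the 9 enzymes. A ratio without a pseudocount is the ratio as given. Depth is unknown, and with 4 residual degrees of freedom small differences could not be tested well.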
